A study of Mus musculus with 289 samples.

Results

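The EGF receptor, its relatives, their ligands and the feedback inhibitor Errfi1 were followed as 10 genes in single epidermal cells descended from Lrig1-positive stem cells of mouse tail skin. The genes were taken by symbol, and all 10 of 10 were rows of the deposited table of 15019 genes. They comprised 3 receptors (Egfr, Erbb2 and Erbb3), 6 ligands (Areg, Ereg, Hbegf, Tgfa, Btc and Epgn) and Errfi1. Each was also described against Lrig1, whose product is a negative regulator of the receptor.

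The mice were CBA C57BL/6 mixed, carried Lrig1-EGFP-ires-CreERT2 and Rosa26-fl/STOP/fl-tdTomato, and had received hydroxytamoxifen once on the tail, after which the skin was treated with PRT4165 or with vehicle. PRT4165 inhibits Ring1a and Ring1b, the ubiquitin ligases of Polycomb repressive complex 1 (PRC1), and the comparison asks what blocking this complex does in skin that was not wounded (time label t0). The animals of the single-cell experiments were female per the study's methods. Tomato-positive cells, labelled keratinocytes and population L1, were sorted singly, and 289 cells lay on 4 plates, which are 2 replicates of vehicle and 2 of PRT4165. Because Cre is driven from the Lrig1 locus, every sorted cell had Lrig1 promoter activity in its ancestry, whether or not it still held Lrig1 transcripts, and the locus itself carries the inserted cassette. The labels do not give the animals behind each plate, and although the study's methods speak of several biological replicates in each single-cell experiment, no plate could be tied to them, so p-values measure the spread between plates only. Each plate holds 1 treatment, so on a single plate the effect of the treatment cannot be told apart from that of the plate. A further code in the labels, which is not explained, also differs between the treatments. Differences between the treatments cannot be told apart from it.

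EGF receptor signalling starts when a ligand, released from a membrane-bound precursor, joins receptors of the ErbB family into pairs that activate the Ras and ERK cascade. Erbb2 binds no known ligand of its own and Erbb3 has little kinase activity, so each acts with a partner. In skin the pathway drives keratinocyte proliferation and migration, shapes hair follicle growth and is switched on in wound repair. Errfi1 (also called Mig6) is induced by receptor activity and binds the receptor kinase to restrain it, whereas Lrig1 lowers receptor protein at the membrane.

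After the filter on cells (at least 1000 genes and at most 50% of counts from mitochondrial genes) 274 cells remained, 70 and 55 with vehicle and 72 and 77 with PRT4165. The summed estimated counts per plate ran from 25761756 to 41592716, and the median per cell was 141985 on vehicle replicate 1 against 429383 to 538754 on the other plates. Detection shares were therefore compared after thinning every cell to 50000 counts from genes that are not mitochondrial, which left out the 28 shallower cells. All 10 keratinocyte markers were detected, and every one of the 274 cells held at least 1 of them. Levels are given as CPM, the counts of a gene per 1000000 counts of the plate or cell. The summed fibroblast list lay between 7.49 and 23.1 CPM with vehicle and between 7.28 and 84.3 CPM with PRT4165, with Col3a1 not among the table's rows. Of 6 immune markers only Ptprc was a row, at no more than 1.11 CPM on any plate. Of the endothelial markers only Pecam1 was a row, and it had a count in all 274 cells.

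The ligand genes include a group of 4 neighbours. In GRCm38, Epgn, Ereg, Areg and Btc lie in this order within 376 kb of chromosome 5 (chr5:91027464-91402994), the first 3 on the plus strand and Btc on the minus strand. Tgfa is on chromosome 6 (chr6:86195223-86275719), Egfr and Erbb2 on chromosome 11 (chr11:16752203-16918158 and chr11:98412470-98437716), Erbb3 on chromosome 10 (chr10:128567523-128589652) and Errfi1 on chromosome 4 (chr4:150853919-150868892).

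The promoters of Areg, Errfi1, Tgfa and Btc are shown because these genes were found more often in a small group of cells than elsewhere (described further on). That of Egfr is shown because its level was lower in that group. The group held 45.7% of the Errfi1 counts, so most of the Errfi1 counts lay outside it. Each is the 250 bases before the RefSeq start in GRCm38.p6, read on the strand of the gene, with capitals marking matches on either strand to TATAAA, to the AP-1 motif TGANTCA, to the cyclic AMP response element (CRE) TGACGTCA, to the GC box GGGCGG or to the E-box CACGTG.
Areg, plus strand, chr5:91139349-91139598: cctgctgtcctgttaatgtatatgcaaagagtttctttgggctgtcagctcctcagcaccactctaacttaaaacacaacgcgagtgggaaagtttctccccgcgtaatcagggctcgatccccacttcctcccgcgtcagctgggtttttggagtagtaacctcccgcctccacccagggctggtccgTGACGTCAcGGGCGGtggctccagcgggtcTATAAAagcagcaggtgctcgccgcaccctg
Errfi1, plus strand, chr4:150854820-150855069: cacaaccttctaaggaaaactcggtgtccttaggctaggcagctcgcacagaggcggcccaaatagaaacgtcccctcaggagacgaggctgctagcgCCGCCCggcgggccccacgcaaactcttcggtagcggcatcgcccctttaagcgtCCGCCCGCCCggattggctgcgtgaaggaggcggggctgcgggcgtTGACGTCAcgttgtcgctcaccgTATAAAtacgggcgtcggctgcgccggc
Tgfa, plus strand, chr6:86194972-86195221: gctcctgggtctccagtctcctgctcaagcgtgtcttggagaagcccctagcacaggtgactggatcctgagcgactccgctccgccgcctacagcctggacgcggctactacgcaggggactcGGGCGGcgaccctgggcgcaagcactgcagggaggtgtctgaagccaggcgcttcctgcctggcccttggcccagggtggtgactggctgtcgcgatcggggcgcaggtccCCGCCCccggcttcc
Btc, minus strand, chr5:91402995-91403244: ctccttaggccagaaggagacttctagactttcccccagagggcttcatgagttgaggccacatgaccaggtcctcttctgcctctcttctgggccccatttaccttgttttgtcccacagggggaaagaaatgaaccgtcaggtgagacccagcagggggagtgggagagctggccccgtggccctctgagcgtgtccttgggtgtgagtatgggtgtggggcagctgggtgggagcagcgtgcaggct
Egfr, plus strand, chr11:16751953-16752202: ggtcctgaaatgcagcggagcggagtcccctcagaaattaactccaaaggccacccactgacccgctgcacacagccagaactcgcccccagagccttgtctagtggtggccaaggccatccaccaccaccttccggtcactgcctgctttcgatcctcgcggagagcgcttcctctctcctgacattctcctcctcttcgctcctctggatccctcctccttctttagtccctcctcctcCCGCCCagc
Areg and Errfi1 share a layout, with a CRE beginning at -61 and -51 and a TATAAA beginning at -31 and -28 from the start. A CRE was present in 1.55% of 32851 promoters of the same length, a TATAAA in 12.4% and both together in 0.119%. A GC box was present in 32.7% of promoters and in those of Areg, Egfr, Tgfa, Lrig1 and Errfi1. No AP-1 motif or E-box was matched in the windows of the 7 members found in the promoter table (6.75% and 6.02% of all promoters hold them), which does not include Erbb3, Ereg or Hbegf. Errfi1 has another RefSeq start (window chr4:150853546-150853795) with none of the 5 motifs, so the layout shared with Areg holds for the printed start only. Which start these cells use was not examined. The promoter of Btc held no match either, and its GC content was 59.6% with 4 CpG dinucleotides, against 57.2% and 15 in Areg, 64.8% and 30 in Errfi1, and medians of 52.4% and 6 over all promoters.

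Egfr was the member found in most cells. At least 1 count of Egfr was present in 53.3% of the 274 cells, of Errfi1 in 80 cells, of Erbb2 in 68, of Hbegf in 68 and of Erbb3 in 64. The other ligands were rare, with Tgfa and Btc in 28 cells each, Areg in 11, Ereg in 7 and Epgn in 3. Lrig1 was found in 97. Some receptor was detected in 67.9% of cells, some ligand in 97 cells (35.4%) and no member in 57 (20.8%).

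In cells with a count, the median was 141.6 CPM for Ereg, 81.6 CPM for Areg, 73.7 CPM for Tgfa and 35.8 CPM for Btc, beside 59.2 CPM for Egfr, 25.2 CPM for Erbb3 and 15.8 CPM for Erbb2, and the lowest such cells of Tgfa and Btc were at 0.694 and 0.949 CPM. Single cells gave most of the Areg and Ereg counts of some plates. On vehicle replicate 1 a single cell gave 87.2% of all Areg counts and 96.1% of all Ereg counts, and on PRT4165 replicate 1 the shares were 95.1% and 99.7%. For Egfr the leading cell gave between 15.4% and 27.4% of a plate's counts.

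Levels of different genes were compared as CPM per kilobase of the longest coding transcript, averaged over the 4 plates. Hbegf, the heparin-binding ligand, was highest at 19.97 CPM per kilobase (11.7 to 38.9 over plates). Errfi1 (8.84, range 6.26 to 13.6), Egfr (8.72, range 4.24 to 15.996), Btc (5.59, range 0.301 to 11.6) and Areg (4.87, range 0.673 to 8.75) followed. Tgfa (3.22), Erbb3 (2.20), Ereg (1.91), Erbb2 (1.41) and Epgn (0.348) were lower. Every gene's range over plates overlapped that of its neighbour in this order, so the order of neighbours does not exceed their spread. The place of Egfr depended on its length: with the median transcript (2943 bases) in place of the longest (10208 bases) it came first at 30.2 CPM per kilobase.

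The ligands were concentrated in a small group of cells. Clustering on variable genes, with the members, Lrig1 and the pathway genes left out, gave 9 clusters, lettered A to I by size. Cluster E held 25 cells and was led by Klk10, Sprr4, Asprv1, Crct1, Krt23, Sprr1a and Cdsn, genes of late keratinocyte differentiation and the cornified layer. It had 5 of the 6 upper hair follicle markers and 3 of the 5 differentiated interfollicular markers raised by over 1 on the log2 scale, but none among its 10 leading genes, so it was given no cell type name. It contained 9.12% of the cells and 15.2% of all counts, yet 62.9% of the counts of the 6 ligands together. By plate this share was 81.9% and 73.7% with vehicle and 54.02% and 7.44% with PRT4165, so it did not hold on PRT4165 replicate 2.

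**Figure D1:**
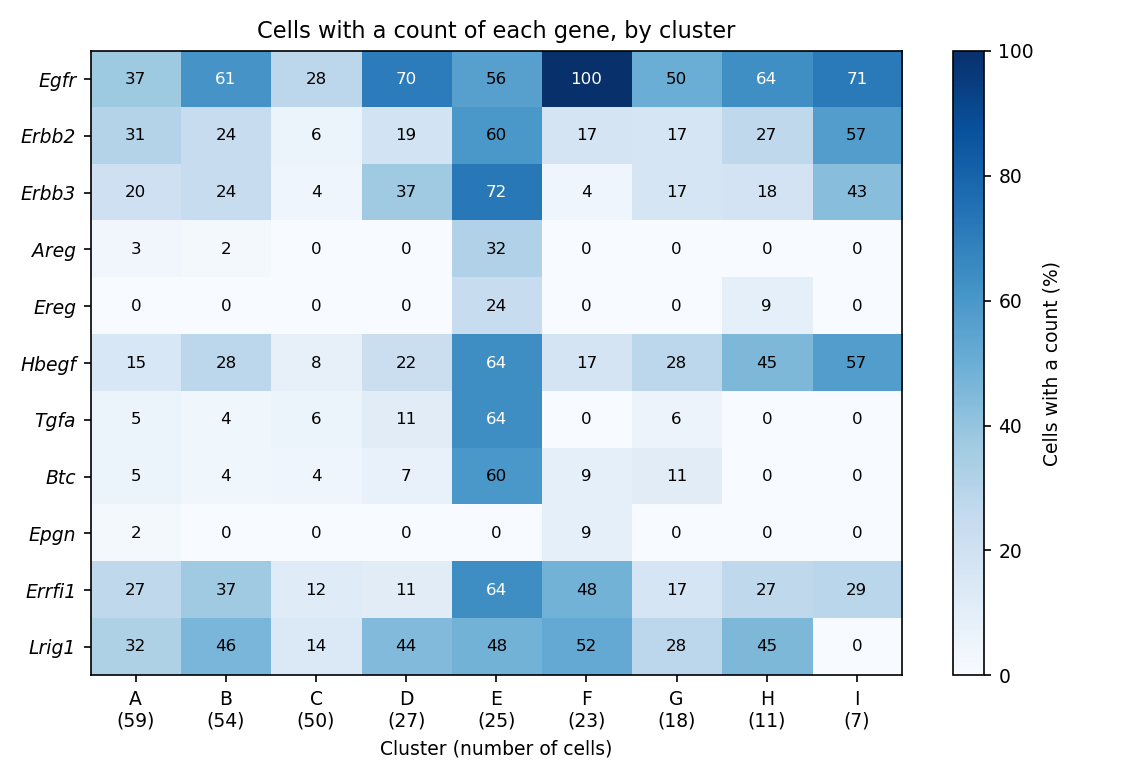
Share of cells with at least 1 count of each member and of Lrig1 (rows, percent printed in each box and shown by colour) in the 9 clusters (columns, number of cells in parentheses). Cluster E has the darkest boxes for Areg, Ereg, Hbegf, Tgfa, Btc, Erbb3 and Errfi1, whereas Egfr is darkest in cluster F, at 100%.

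Ereg (epiregulin) was found in 6 of the 25 cells of cluster E and in 1 of the other 249, and cluster E held 99.9% of its counts. Areg (amphiregulin) was found in 8 of 25 and 3 of 249 cells, with 94.4% of counts in cluster E. Btc (betacellulin) was found in 15 and 13 cells, with 90.1% of counts there, and Tgfa (transforming growth factor alpha) in 16 and 12, with 56.6%. On PRT4165 replicate 1 Tgfa was at 11.7 CPM in cluster E and 16.7 CPM outside it. Hbegf was spread more widely, with 16 of 25 cells in cluster E against 52 of 249 elsewhere and 46.9% of its counts. Epgn (epigen) was not found in cluster E, and 0 of 25 cells allows a share of up to 12% (3 of the 25, the limit that a count of 0 allows). Thus 4 of the 6 ligands had most of their counts in these 25 cells, and the neighbours Ereg, Areg and Btc had at least 90.1%, while their neighbour Epgn had none.

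**Figure D2:**
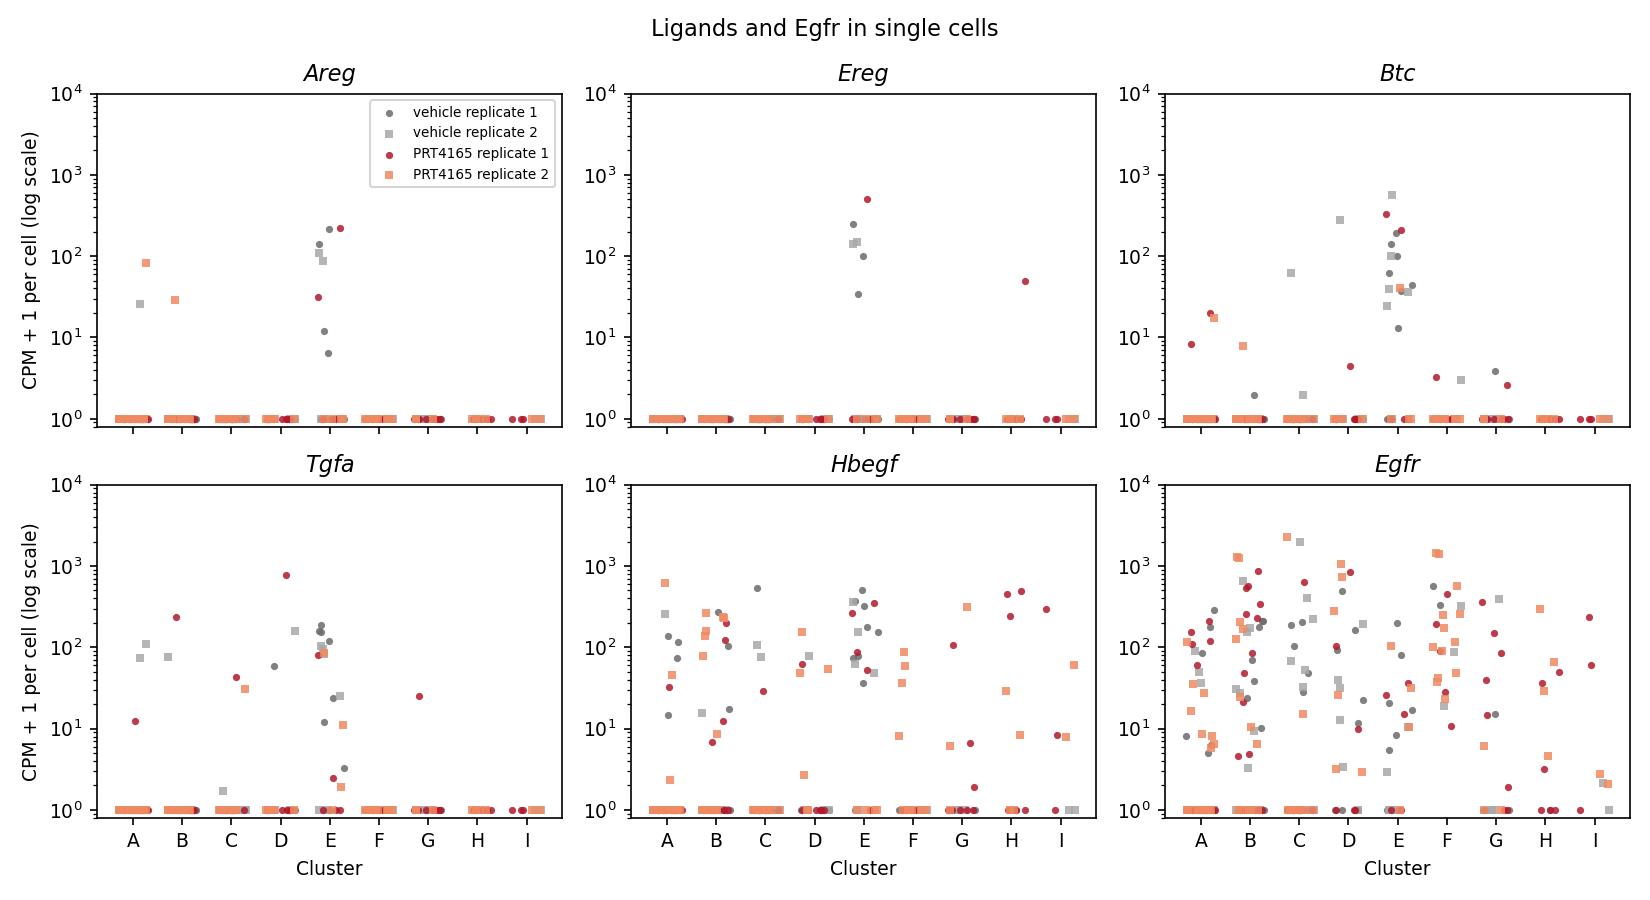
Level of 5 ligands and of Egfr in each of the 274 cells, as CPM + 1 on a log axis, by cluster (columns) and plate (colour and shape). Points on the bottom line are cells with no count. Areg and Ereg rise above that line almost only in cluster E, Hbegf in every cluster, and Egfr in every cluster with all 23 cells of cluster F above it.

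The same cells often carried several ligands. In cluster E 24 of 25 cells (96.0%) held at least 1 ligand, 16 held at least 2 and 13 held at least 3, up to 5 in a cell. In all other clusters together 73 of 249 cells held a ligand, 9 held at least 2 and 2 held at least 3. Areg and Ereg were found together in 5 cells, which is 45.5% of the Areg cells and 71.4% of the Ereg cells. Tgfa and Btc shared 11 cells, 39.3% of each. These 25 cells were also deeply sequenced, with a median of 667689 counts against 414249 over all cells. After thinning to equal depth the shares in cluster E were 63.1% for Hbegf, 55.4% for Btc, 48.1% for Tgfa, 26.7% for Areg and 23.6% for Ereg, and in all other cells 18.3%, 2.30%, 4.25%, 1.198% and 0%.

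Receptors and feedback inhibitor were not distributed alike. Erbb3 was found in 18 of 25 cells of cluster E (72%) against 46 of 249 elsewhere (18.5%), and its pooled level there was 30.7 CPM against 9.95 CPM in the other cells. By plate the level of Erbb3 was higher in cluster E on 2 of 4, at 10.6 against 13.0, 77.1 against 8.81, 31.6 against 6.19 and 2.08 against 12.9 CPM. Errfi1 was found in 16 of 25 cells (64%) against 64 of 249 (25.7%), at 76.6 against 16.4 CPM. Erbb2 was found in 15 of 25 (60%) against 53 of 249 (21.3%), but at equal depth the shares were 28.5% and 15.2% and the levels 6.13 and 7.48 CPM. Egfr went the other way in level, at 14.3 CPM in cluster E against 110 CPM elsewhere, although 14 of the 25 cells had a count. After thinning, 7 of the 10 members had their highest share in cluster E, where 8.49% of 14637 genes with a count in at least 3 cells had theirs. The clusters come from the same cells, so these values describe them and were not tested. At Leiden resolutions 0.6 and 1.5 a single cluster likewise led for all 8 members that cluster E led in unthinned shares.

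Egfr was most regular in cluster F, a sebaceous gland-like group of 23 cells led by Fa2h, Soat1, Far2, Acox2 and Scd1, in which all 8 sebaceous gland markers were raised. All 23 cells had a count of Egfr (Wilson 95% interval 85.7 to 100%), against 123 of 251 other cells, and at equal depth the shares were 94.7% and 40.4%. Its level per plate in this cluster was 356 and 162.6 CPM with vehicle (2 and 3 cells) and 157.8 and 279 CPM with PRT4165 (5 and 13 cells). At least 1 ligand was found in 6 of these 23 cells, beside 73 of the 249 cells outside cluster E. Areg, Ereg and Tgfa had a count in 0 of 23 cells, which allows a share of up to 13.0%, Btc in 2 and Hbegf in 4. Erbb3 was found in 1 of 23 cells, Erbb2 in 4 and Errfi1 in 11. Epgn, found in 3 cells in all, had 2 of them here, both on PRT4165 replicate 2.

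In the remaining clusters the receptor level also varied. Egfr was at 185.97 CPM in cluster D (led by Aspn and Pi15), 171.04 CPM in cluster B (led by Prdm8) and 140 CPM in cluster C, which was bulge-like (6 of 7 bulge markers raised, Cd34 among its leading genes) and shallow, with a median of 170634 counts. In cluster C 14 of 50 cells (28%) had a count, 2 of them gave 73.9% of its Egfr counts, and the plates ran from 3.23 to 454 CPM. Egfr was at 19.3 CPM in cluster A, led by Aadacl2, Krt1 and Slurp2, and at 14.3 CPM in cluster E. Cluster G, which was led by Hmmr and Cenpf and had all 6 cycling markers raised, was at 48.8 CPM.

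The comparison of treatments was made on counts summed per plate, with the plate as the replicate. Of the 10 members, 9 passed the filter on low counts, and 0 of these 9 passed an adjusted p of 0.05 in edgeR's quasi-likelihood test, as 0% of the 12791 genes tested did. At an unadjusted p under 0.05 there was 1 member in edgeR against 4.93% of all genes, and the same member in DESeq2 against 8.21%. At an adjusted p of 0.05 DESeq2 called 1.37% of the genes given one but 0 of the members. The fitted log2 fold changes of the 9 members had a median of -0.84, against -0.02 over all genes tested. Of the 9 members 7 were below 0, as were 6472 of the 12791 genes. Several of the 7 are ligands found largely in the cells of cluster E, so their signs are not independent. The biological coefficient of variation between plates was 76.9%, and changes smaller than the plate spread could not be resolved.

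Egfr was at 43.3 and 72.9 CPM with vehicle and at 76.6 and 163.3 CPM with PRT4165. Both PRT4165 plates were above both vehicle plates, but the lower of them exceeded the higher vehicle plate only slightly. The log2 fold change was 1.13 ± 0.61 (SE, n = 2 plates per treatment; edgeR adjusted p = 0.997). Without PRT4165 replicate 2, the highest plate, it was 0.42. Plates of PRT4165 lay above both vehicle plates in CPM for 15.4% of genes and below both for 16.3%. The share of cells with a count at equal depth was 43.2% and 40.7% with vehicle and 47.97% and 48.7% with PRT4165. The exact two-sided permutation test over plates gave p = 0.33, the smallest p that 2 against 2 plates can give.

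Within cluster B, Egfr was at 73.2 and 82.6 CPM with vehicle (13 and 10 cells) and at 249 and 266 CPM with PRT4165 (16 and 15 cells). The 2 treatments did not overlap there, with a log2 fold change of 1.55 ± 0.98 (SE; edgeR adjusted p = 0.9998), while the share of cells with a count was 53.8% and 70% against 68.8% and 53.3%. In this cluster both PRT4165 plates were above both vehicle plates for 19.8% of the 8457 genes tested, and 2 cells gave 49.5% of its Egfr counts. In cluster A, Egfr was at 23.7 and 14.1 CPM with vehicle and 23.7 and 15.6 CPM with PRT4165, and the plates of cluster C overlapped as well. The number of sebaceous gland-like cells, all with Egfr, also differed between plates, at 2 and 3 with vehicle and 5 and 13 with PRT4165, and the summed sebaceous gland list was at 637 and 1837 CPM against 1046 and 2914 CPM. The part of these cells in the Egfr level of the plates was not tested.

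Erbb2 was at 6.64 and 6.40 CPM with vehicle and at 2.24 and 13.1 CPM with PRT4165, so the PRT4165 plates lay on either side of the vehicle plates. Erbb3 was at 12.1 and 20.1 CPM with vehicle and at 8.45 and 12.2 CPM with PRT4165. Their log2 fold changes were 0.30 ± 1.09 and -0.57 ± 0.80 (SE), and neither passed the test. At equal depth the shares were lower on both PRT4165 plates, at 11.4% and 14.9% against 23.8% and 16.8% for Erbb2, and at 17.5% and 14.8% against 20.01% and 20.6% for Erbb3.

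**Figure D3:**
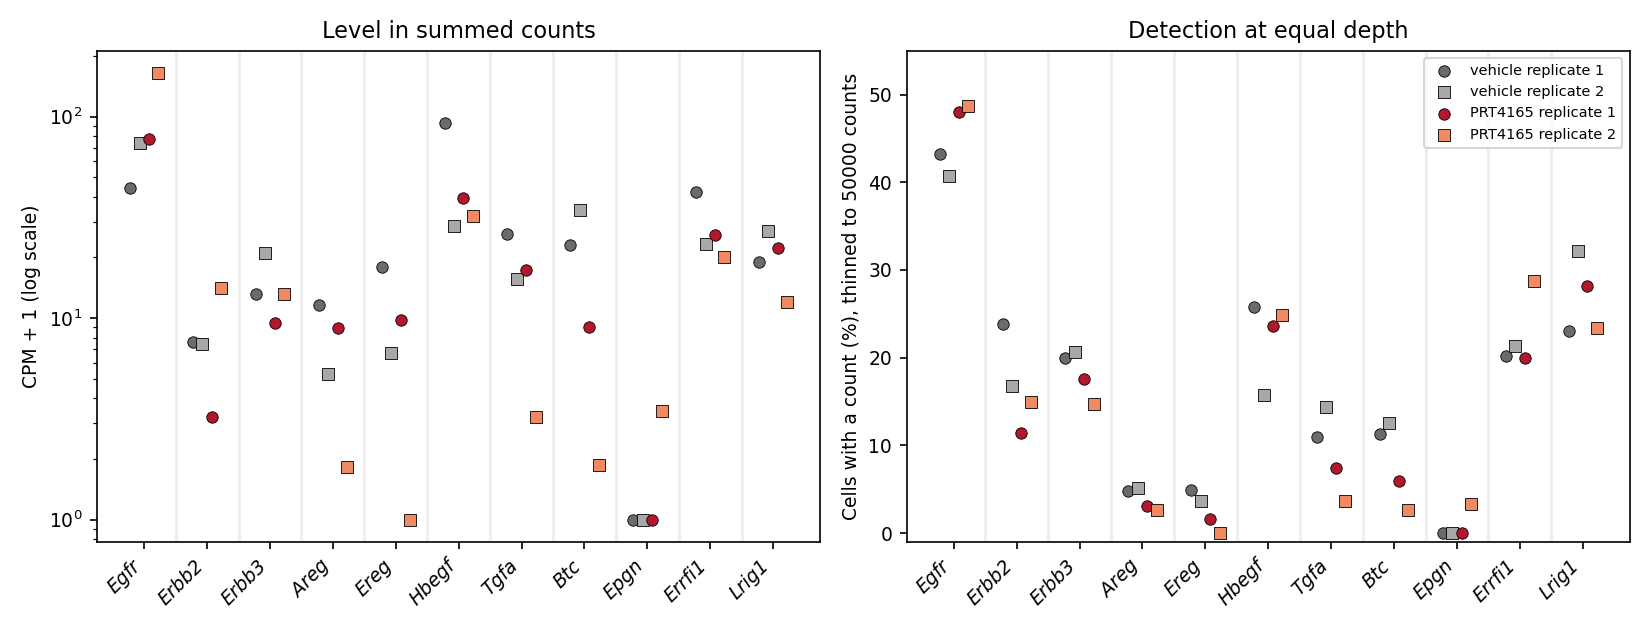
Left, level of each member and of Lrig1 in the summed counts of each plate, as CPM + 1 on a log axis; right, share of cells with a count after thinning to 50000 counts. Grey symbols are vehicle and red or orange symbols PRT4165, with circles for replicate 1 and squares for replicate 2. Egfr sits higher with PRT4165 on both measures, and Btc, Tgfa, Areg and Ereg sit lower in detection.

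Btc was the 1 member with an unadjusted p under 0.05. It was at 22.0 and 33.4 CPM with vehicle and at 8.01 and 0.866 CPM with PRT4165. The treatments did not overlap, and the log2 fold change was -2.63 ± 1.09 (SE), with an unadjusted p of 0.0411 and an adjusted p of 0.997 in edgeR. DESeq2 gave an unadjusted p of 0.0092 and an adjusted p of 0.267. The fold change lay between -4.88 and -1.78 without single plates, and the unadjusted p was above 0.05 when a plate other than PRT4165 replicate 1 was left out (edgeR p = 0.0806 and 0.101 without the vehicle plates and 0.129 without PRT4165 replicate 2) and when the cell of most counts was left out on each plate (0.0994). On vehicle replicate 2 a single cell gave 71.5% of its Btc counts. At equal depth 11.3% and 12.5% of cells had a count with vehicle and 5.90% and 2.68% with PRT4165. Because a bulk sum cannot tell fewer cells of a type from less RNA per cell, the shares of cells are given beside each level.

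Tgfa was at 25.1 and 14.7 CPM with vehicle and at 16.3 and 2.21 CPM with PRT4165. Areg was at 10.6 and 4.29 CPM with vehicle and at 7.93 and 0.817 CPM with PRT4165. Ereg was at 17.0 and 5.67 CPM with vehicle, at 8.81 CPM on PRT4165 replicate 1 and at 0 on PRT4165 replicate 2, where 0 of 77 cells had a count and a share of up to 3.90% is allowed. For these 3 ligands the CPM of the treatments overlapped, and the log2 fold changes were -1.16 ± 1.03, -0.85 ± 1.25 and -1.46 ± 1.90 (SE). Without single plates they ran from -3.12 (PRT4165 replicate 1 left out) to -0.35 for Tgfa and from -11.6 (the same plate) to -0.24 for Ereg, and without the cell of most counts on each plate they were -3.22 and -6.04. The thinned shares did not overlap, at 10.996% and 14.3% against 7.48% and 3.65% for Tgfa, 4.81% and 5.10% against 3.04% and 2.62% for Areg, and 4.93% and 3.70% against 1.64% and 0% for Ereg. In all, 6 members had both PRT4165 plates below both vehicle plates in thinned share, and 1 (Egfr) had them above, beside 12.2% and 25.1% of 14637 genes (37.3% in either direction). For Areg and Ereg these shares rest on 11 and 7 cells.

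The share of cells in cluster E was also lower on both PRT4165 plates. Cluster E made up 14.3% and 10.9% of the kept cells with vehicle (10 and 6 cells) and 6.94% and 5.19% with PRT4165 (5 and 4 cells). Other clusters differed as well, such as cluster C, at 24.3% and 27.3% with vehicle and 11.1% and 13.0% with PRT4165. Tgfa, Areg and Ereg were at higher CPM on PRT4165 replicate 1 than on vehicle replicate 2. On PRT4165 replicate 1 a single cell gave 83.2% of the Tgfa counts, and single cells gave 95.1% of the Areg and 99.7% of the Ereg counts. The summed upper hair follicle list, most of which was raised in the cells of cluster E, was at 37641 and 46733 CPM with vehicle and 17808 and 34989 CPM with PRT4165. With the cells of cluster E left out, a choice made after seeing the data, 3 members (Egfr, Hbegf and Errfi1, all higher with PRT4165) instead of 7 had plates that did not overlap, and of the 7 only Egfr was among them. Cluster E held most counts of Ereg, Areg, Btc and Tgfa. For these ligands the loss of non-overlap was therefore largely fixed by the choice, and nothing is concluded from it. Over 14499 genes with a count in at least 3 of the remaining cells, 25.9% had both PRT4165 plates above and 37.3% did not overlap. The mean thinned shares of Btc were then 2.53% with vehicle and 2.20% with PRT4165, and those of Tgfa 5.21% and 3.77%, against 11.9% and 4.29%, and 12.7% and 5.57%, with all cells. Inside cluster E itself, without thinning, Btc was found in 7 of 10 and 5 of 6 cells with vehicle and in 2 of 5 and 1 of 4 with PRT4165, and Tgfa in 7 of 10 and 4 of 6 against 2 of 5 and 3 of 4. At equal depth the mean shares there were 70.1% with vehicle and 31.1% with PRT4165 for Btc, 58.5% and 32.5% for Tgfa, and 31.2% and 10% for Ereg. The plates of these ligands did not overlap, and neither did those of Erbb2 (37.4% and 12.7%) and of Egfr (24.4% and 52.4%, higher with PRT4165). Those of Areg, Hbegf, Erbb3 and Errfi1 did overlap. All rest on 4 to 10 cells per plate. The share of all genes that did not overlap inside cluster E was not computed, so nothing is concluded about the members from this. On PRT4165 replicate 2 none of the 4 cluster E cells had a count of Areg, Ereg or Hbegf. The part that the number of cluster E cells has in the ligand differences was not tested.

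**Figure D4:**
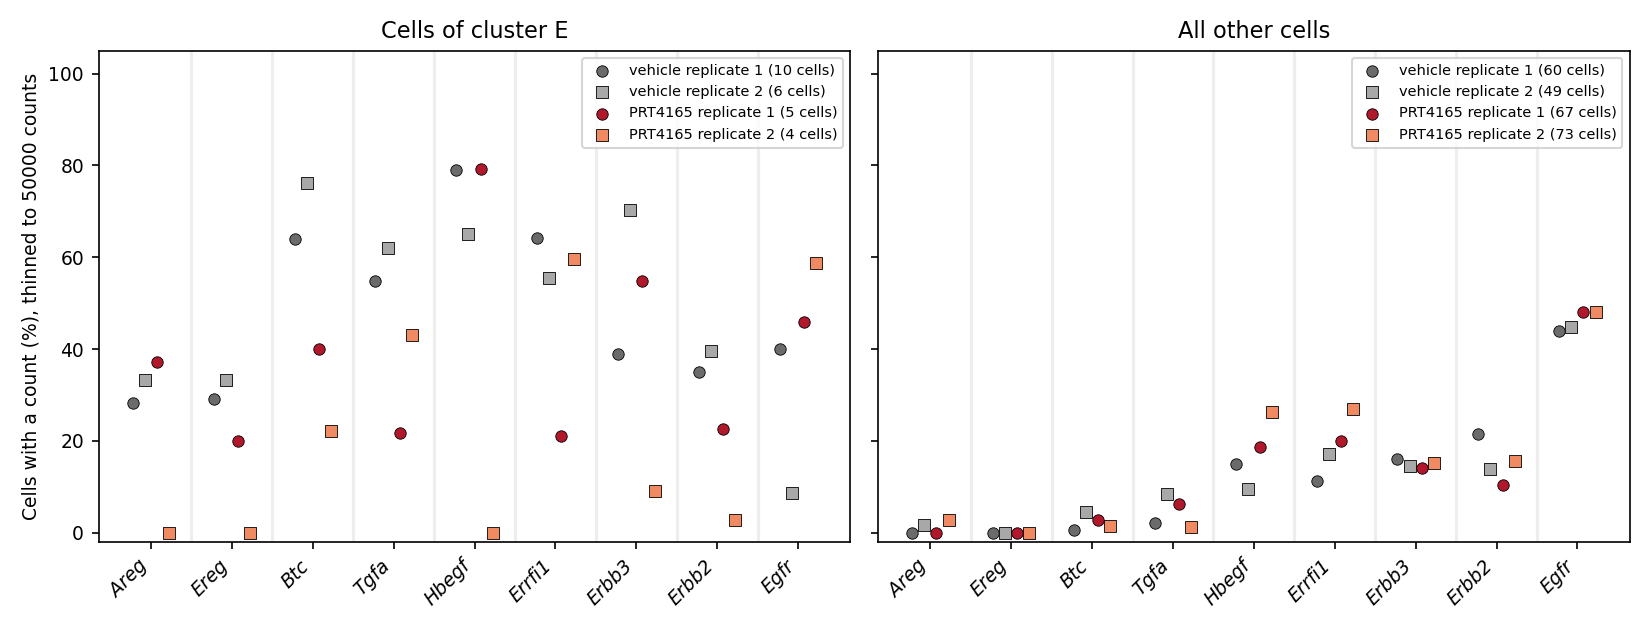
Share of cells with a count after thinning to 50000 counts (percent) inside cluster E (left) and in all other cells (right), for each plate; the legends give the number of cells before thinning. Inside cluster E most ligand shares are higher and scatter between plates of 4 to 10 cells, but Areg, Ereg and Hbegf are at 0 there on PRT4165 replicate 2. Outside it Hbegf and Errfi1 sit higher on both PRT4165 plates.

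Hbegf (GRCm38 chr18:36504927-36515805, minus strand) and Errfi1 had other values outside cluster E. Over all cells Hbegf was at 92.3 and 27.7 CPM with vehicle and at 38.5 and 31.1 CPM with PRT4165 (log2 fold change -0.84 ± 0.75, SE), and Errfi1 at 41.4 and 22.2 against 25.0 and 19.0 CPM (-0.55 ± 0.72, SE), with overlapping treatments for both. Outside cluster E the mean thinned share of Hbegf was 12.3% with vehicle and 22.5% with PRT4165, and that of Errfi1 14.1% and 23.4%. For each gene both PRT4165 plates were above both vehicle plates, as they were for 25.9% of 14499 genes outside cluster E. Inside cluster E the mean shares were 72.1% against 39.6% for Hbegf and 59.9% against 40.3% for Errfi1, on plates of 4 to 10 cells that overlapped. The fitted log2 fold change of Errfi1 without cluster E was 1.44 ± 1.03 (SE, edgeR adjusted p = 0.997), the opposite sign to that over all cells. For Hbegf it was -0.08 ± 0.84 (SE), so its level outside cluster E was not higher with PRT4165 although its share was. The CPM of Hbegf there was 46.6 and 13.0 with vehicle and 23.1 and 33.5 with PRT4165, which overlap.

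Epgn, the last ligand, had counts on PRT4165 replicate 2 only, at 2.45 CPM from 3 of 77 cells, of which 1 gave 89.2%. The other plates had none, which allows shares of up to 4.29% and 5.45% of cells on the vehicle plates and 4.17% on PRT4165 replicate 1.

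Lrig1 transcripts were at 18.1 and 26.0 CPM with vehicle and at 21.3 and 11.1 CPM with PRT4165 (log2 fold change -0.41 ± 0.74, SE), with overlapping treatments. It was found in 97 of 274 sorted cells, so most cells with the lineage label had no Lrig1 count at this depth. The cells with Lrig1 were more deeply sequenced, with a median of 515566 counts against 333761, and co-detection was therefore compared within plates and at equal depth.

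Hbegf was found with Lrig1 more often than without it on all 4 plates. Without thinning, 44 of 97 cells with Lrig1 had Hbegf (45.4%) against 13.6% of the cells without it. At equal depth the shares with and without Lrig1 were 42.2% and 20.9% on vehicle replicate 1, 27.7% and 10.1% on vehicle replicate 2, 44.4% and 15.6% on PRT4165 replicate 1, and 37.7% and 21.0% on PRT4165 replicate 2. The difference was 21.1 ± 5.54 percentage points (SD, n = 4 plates). The exact two-sided sign-flip permutation test gave p = 0.13, the smallest that 4 plates allow, and 0.357 after Benjamini-Hochberg adjustment over the 10 members.

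Egfr was likewise higher in Lrig1 cells on all 4 plates. At equal depth the shares with and without Lrig1 were 48.6% and 41.6%, 54.3% and 34.3%, 59.8% and 43.3%, and 60.3% and 45.2% on the plates in the same order. The difference was 14.6 ± 5.52 percentage points (SD, n = 4 plates; exact permutation p = 0.13, adjusted 0.357). Without thinning the receptor was detected in 65.98% of cells with Lrig1 and in 46.3% of those without. Thus 2 of the 10 members were higher on every plate, beside 9.78% of 14636 genes, and 0 lower on every plate, beside 4.59%. The median difference was 4.44 percentage points over the members and 0.78 over all genes. Members and all genes were not matched for how often they are detected, on which such differences depend, so a particular tie of the members to Lrig1 was not tested.

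The other members were less even. Erbb3, Areg, Ereg, Tgfa, Btc and Errfi1 were higher with Lrig1 on 3 of 4 plates, by means of 9.30, 4.68, 3.95, 3.36, 4.21 and 9.24 percentage points. Erbb2 was higher on 2 of 4, with a mean of -0.95 percentage points. For Errfi1 the exception was large: its shares with and without Lrig1 were 36.5% and 15.3%, 31.02% and 16.8%, and 30.8% and 15.7% on the first 3 plates, but 18.3% and 31.9% on PRT4165 replicate 2. With that plate left out, 7 members were higher on every remaining plate, and leaving out each plate in turn gave 2 to 7. The share of all genes higher on every plate was computed for 4 plates only, and fewer plates make such a count easier to reach. Nothing is therefore concluded from the 7. Without the cells of cluster E the difference of Hbegf was 16.8 percentage points and still above 0 on all 4 plates, and that of Egfr was 13.2 but no longer above 0 on every plate.

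**Figure D5:**
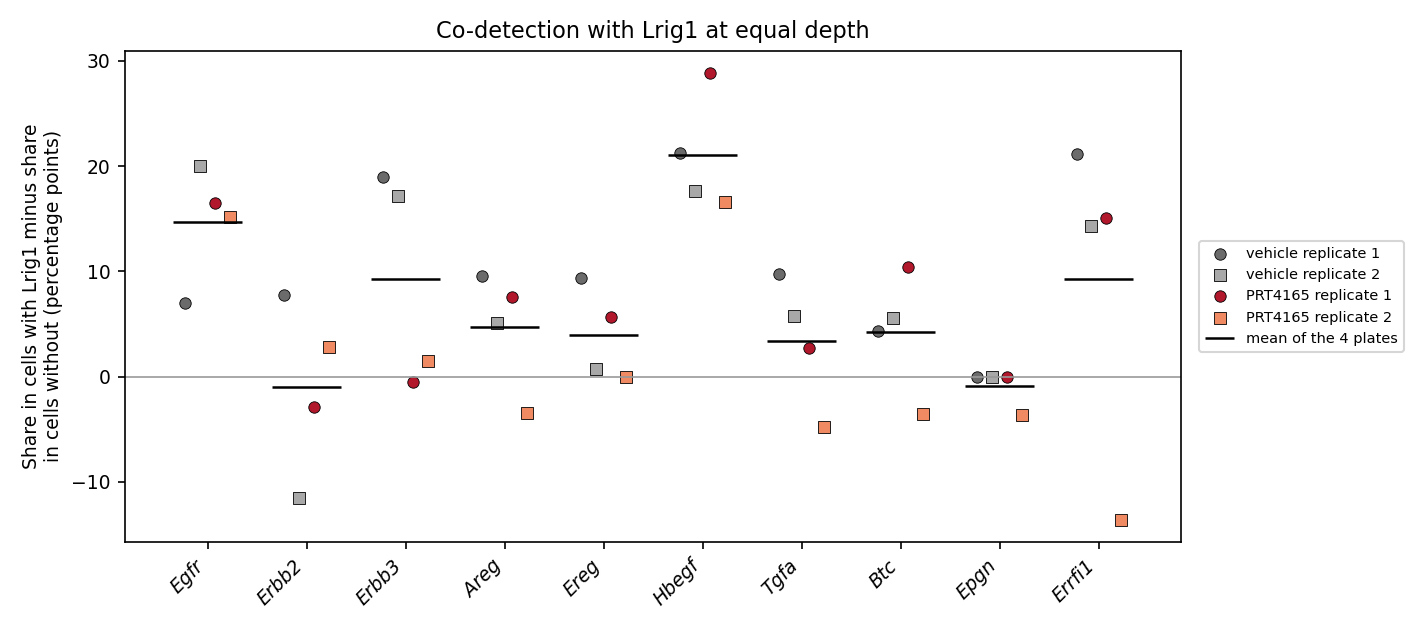
Share of cells with each member among cells with Lrig1 minus the share among cells without it, in percentage points at equal depth, for each of the 4 plates (symbols) and as their mean (black line). Hbegf lies between 16.6 and 28.8 and Egfr between 6.96 and 19.99, with all 4 plates above 0, and Errfi1 has 1 plate at -13.6.

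Receptor and ligand were also met in the same cell. At least 1 ligand was found in 44.5% of the cells with Egfr (65 cells) and in 25.0% of those without (32 cells). This was higher in Egfr cells on every plate, at 46.9% against 15.8%, 32.1% against 29.6%, 43.6% against 33.3%, and 51.1% against 23.3%, without correction for depth. Erbb2 and Erbb3, which can signal as a pair, were found together in 27 cells, 39.7% of the Erbb2 cells and 42.2% of the Erbb3 cells. Independent detection over all cells would give 15.9. This too is without correction for depth, and both genes were found more often in the deeply sequenced cluster E.

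The other genes of the pathway did not pass the test either. Of 66 genes in the list, 63 were rows of the table and 60 were tested, with 0 called higher and 0 called lower by edgeR and 0 called by DESeq2. At an unadjusted p under 0.05 there were 3 higher (5%, beside 2.79% of all genes) and 0 lower (beside 2.13%). The median log2 fold change was 0.18 over the 60 genes, 0.30 for the 7 genes of ligand release such as Adam17, 0.18 for the 21 adaptors and kinases of the cascade, -0.24 for the 19 negative regulators and 0.48 for the 12 transcripts raised by ERK signalling. Erbb4, Nrg1 and Nrg2 were not among the rows.

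Among the genes with a higher fold, Spry2, an inhibitor of the cascade, was at 5.24 and 4.52 CPM with vehicle and 61.1 and 6.66 CPM with PRT4165 (log2 fold change 2.77 ± 1.07, SE; edgeR adjusted p = 0.987). PRT4165 replicate 1 alone stood far above the other plates, and without it the log2 fold change was 0.52. Fosl1, an AP-1 subunit, was found in 6 cells and did not exceed 1.63 CPM on any plate (4.34 ± 1.78; adjusted p = 0.996). With a lower fold, Etv5, a transcription factor induced by ERK, was at 25.1 and 23.7 CPM against 9.78 and 0.144 CPM (-2.33 ± 1.45), and Spred1, an inhibitor of Ras, at 25.2 and 62.8 against 30.1 and 16.3 CPM (-0.85 ± 0.71), both with adjusted p = 0.997.

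The genes whose levels over cells were most like those of a member were found among 6212 genes with a count in at least 20% of cells, by the Spearman correlation of log2(CPM + 1) over the 274 cells after subtraction of plate means. Cells share depth, so these values are descriptions. After the subtraction, cells with no count have a different value on each plate, so differences between plates also enter these correlations. For Egfr they were Adh1 (0.46), Gpc4 (0.41) and Ddhd2 (0.41), for Erbb2 Sh3rf2 (0.45), Teddm3 (0.44) and Susd2 (0.43), and for Erbb3 Itpkc (0.54), Slc5a1 (0.52) and Dhcr7 (0.51). For Hbegf they were Atf1 (0.45), Alkbh8 (0.42) and Lyar (0.42), and for Errfi1 Rhou (0.37), Traf3ip2 (0.35) and Mrps2 (0.34). On this measure Lrig1 was not among the 3 most like genes for any of the 5, with values between -0.07 and 0.18. For Hbegf the value was 0.09, although Hbegf was detected more often with Lrig1 on all 4 plates, so a weak tie is not concluded. No member was among the 3 genes most like another.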

How the data were processed

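Single tomato-positive cells were sequenced with a modified Smart-seq2 protocol. The authors quantified reads with Salmon 0.13.1 against the mouse transcriptome (GRCm38) and deposited the estimated counts of every gene in every cell in 1 table, without normalization and without molecular identifiers, so intervals cover counting error only. Labels gave each cell's plate, treatment and batch number; AC was taken as vehicle because PRT4165 and vehicle are the only treatments named. Both vehicle plates carry the code PR9 and both PRT4165 plates the code PR12. These codes are not explained, and what they mark cannot be told apart from treatment.

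Counts were rounded, summed per plate, filtered (filterByExpr), normalized by TMM and tested with edgeR 4.0.16 (R 4.3.3, quasi-likelihood, Benjamini-Hochberg, threshold 0.05), a fit also tested on simulated data. The SE is the fold change divided by the square root of F. DESeq2 1.42.0 (172 genes called), limma 3.58.1 on log2(mean CPM + 1) and other alternatives are given in the closing section. Detection means at least 1 count, and thinned shares are closed-form hypergeometric expectations. Clusters used 2000 variable genes, 15 components, 15 neighbours and Leiden resolution 1.0, and were named where 1 marker list held more of the 10 leading genes than any other and 3 or more of its markers exceeded the rest by a log2 difference of 1, a rule applied with the values known. The labels call the replicate number a batch; the deviations of same-numbered plates correlated at 0.0455 over 9917 genes. No doublet caller was run, since wells received 1 sorted cell. Gene positions and lengths come from GENCODE M21.

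The members and lists were chosen with earlier results of these data known. The named genes are the 10 members, Lrig1, the 3 pathway genes of smallest p in each direction (some of these are not reported here) and, for each member found in at least 20% of cells, the 3 genes most like it.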

Additional observations from a re-analysis of the deposited data

How the results depend on the processing

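No member and no gene of the pathway list passed an adjusted p of 0.05 under any of the fits run, and edgeR and limma called 0% of genes in each of theirs, whereas DESeq2 called 1.37%. With the replicate block, that is the batch number of the labels as a paired term, 0 genes were called and no call changed; the log2 fold change was then 1.03 for Egfr, -3.31 for Btc and -0.23 for Erbb2, which changed sign. Of the fold changes of members, Lrig1 and named pathway genes, 27 turned in direction under some alternative, none of them called, and the cause was not tested. Erbb2 was at -0.27 with the stricter filter on cells, -0.034 with each cell weighing the same and -0.16 and -1.64 in clusters A and D, and Etv5 was at 0.28 with the stricter filter. Hbegf was at 0.29 with each cell weighing the same. In cluster A, Erbb3 was at 1.37, Areg at 0.91, Errfi1 at 1.52, Spry2 at -0.19 and Spred1 at 3.37. In cluster B, Errfi1 was at 4.37 and Spred1 at 0.40. In cluster D, Hbegf was at 1.72, Tgfa at 2.27, Errfi1 at 0.0023, Spry2 at -2.08, Etv5 at 0.46 and Spred1 at 4.01. Without cluster E, Tgfa was at 1.197 and Errfi1 at 1.44. Without single plates the fold change of Erbb2 lay between -1.56 (PRT4165 replicate 2 left out) and 1.09, that of Areg between -3.16 and 0.17, that of Hbegf between -1.52 and 0.50, and that of Errfi1 between -1.02 and 0.16. The highest of the last 3 came without vehicle replicate 1, and Areg was also at 0.0091 without PRT4165 replicate 2.

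The number of members whose shares did not overlap between treatments was 7, between 5 and 8 with other depths, detection limits, filters or cluster E alone, and 3 without cluster E. The matching share over all genes was computed for all cells and without cluster E only. The difference in share, PRT4165 minus vehicle, became 0.596 percentage points for Areg without cluster E, -32.5 for Hbegf and -19.5 for Errfi1 within cluster E, and 2.21 for Lrig1 without thinning and with any count above 0. Without single plates it ran from -1.53 (vehicle replicate 2 left out) to 8.51 for Hbegf, from -0.806 (PRT4165 replicate 2) to 7.97 for Errfi1, and from -6.43 to 2.75 (vehicle replicate 2) for Lrig1, which was also above 0, at 0.543, without PRT4165 replicate 2.

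The number of members found more often with Lrig1 on every plate was 2. It was 4 without thinning and with any count above 0, 1 without cluster E, 0 in clusters A, B and D alone, and 2 to 7 without single plates, with 7 where PRT4165 replicate 2 was left out. Cluster C gave no count because it had values on only 3 plates. The share of all genes was not computed for these settings. The mean difference for Erbb2 was 8.02 percentage points without thinning and with any count above 0, 6.35 with at least 5 counts and 17.2 in cluster B, and from -3.87 to 2.56 without single plates, the last without vehicle replicate 2. In cluster B it was -0.924 for Egfr, -8.69 for Erbb3, -3.07 for Areg, -6.88 for Tgfa, -1.77 for Btc and -19.3 for Errfi1. In cluster D it was -6.77 for Erbb3 and -9.73 for Btc, in cluster A -0.865 for Tgfa, and in cluster C -3.17 for Hbegf. The fits of single clusters, of lone plates and of ligands found in few cells rest on few counts, and plates of 55 to 77 cells limit every share.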
